A study of Saccharomyces cerevisiae and Neurospora crassa and Schizosaccharomyces pombe with 13 samples.

Results

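Genes of Neurospora crassa whose coding sequence measured 4000 bp or more were examined in the gene annotation deposited with the study. Each gene was represented by its longest transcript by exonic length, and genes were chosen by the summed length of its CDS records, which leave out the stop codon. The rule took in 338 of 9730 genes (3.47%). Together they held 12.6% of all annotated coding bases, 1862 kb, a share that the rule itself raises. They held 4.48% of the introns within coding regions, below that share of bases and above their share of genes. Genes with 1000 to 2000 bp of coding sequence, 3871 in number, served as the reference.

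The study mapped nucleosomes by MNase-seq: micrococcal nuclease cuts the linker DNA, and the fragments that nucleosomes protect are sequenced. Its 13 libraries come from Saccharomyces cerevisiae (10 libraries, W303 wild type and ISW2 disruptions), Schizosaccharomyces pombe (1 library, wild type) and N. crassa (2 libraries, wild type). The standard protocol was used for 4 S. cerevisiae libraries and the rapid protocol for 9 libraries, some of them labelled Patch. All were fixed with 1% formaldehyde, for 10 min in N. crassa and 15 min in the yeasts. The N. crassa libraries were made with the rapid protocol from conidia, the asexual spores. These had grown for 3.5 h in Vogel's solution with sucrose until most had germinated. Reads, footprints and depth were not analysed here, and every value below is a length, position or count in the annotation, which follows strain OR74A. Its 7 sequences, numbered 1 to 7, were the units of the tests, so p-values measure only the spread between them.

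Very long coding sequences encode very large proteins. In fungi these typically include motor proteins such as the dynein heavy chain, large kinases, membrane transporters and multidomain enzymes such as fatty acid, polyketide and nonribosomal peptide synthases. Introns in filamentous fungi are short, and the spliceosome removes them from the transcript before translation. The annotation pairs its identifiers with no gene names, so the genes below are called by their identifiers and no function is given to any of them.

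The coding lengths ranged from 4011 to 32127 bp (median 4886 bp, quartiles 4364 and 5978 bp). Most genes, 181 of 338 (53.6%), lay between 4 and 5 kb, 74 between 5 and 6 kb, 63 between 6 and 8 kb and 20 at 8 kb or above. The gene just inside the limit was NCU07546 with 4011 bp and that just outside was NCU04750 with 3996 bp. They had 2 and 3 coding exons, a 5' UTR of 384 and 345 bp and a longest coding exon of 2381 and 2168 bp. That exon was the first in NCU07546 and the last in NCU04750. The 3' UTR measured 372 and 129 bp, and the gap to the nearest gene upstream 3131 and 289 bp.

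The long genes were built around 1 very large exon. Their number of coding exons had a median of 3, against 2 in the reference, although their coding sequence was more than 3 times as long (median 4886 against 1416 bp). The median length of the longest coding exon was 4020 bp (quartiles 2984 and 5039 bp), and its median share of the coding sequence was 80.1%. In the reference, the longest exon was 1062 bp, but its share was nearly the same, 77.4%. In 301 long genes (89.1%) a single exon carried at least 50% of the coding sequence, and in 116 (34.3%) at least 90%; the shares in the reference were 85.6% and 33.2%. In the whole annotation 170 genes had a coding exon of 4000 bp or more. These quantities follow in part from the coding length that chose the genes, and they are given without a test.

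**Figure D1:**
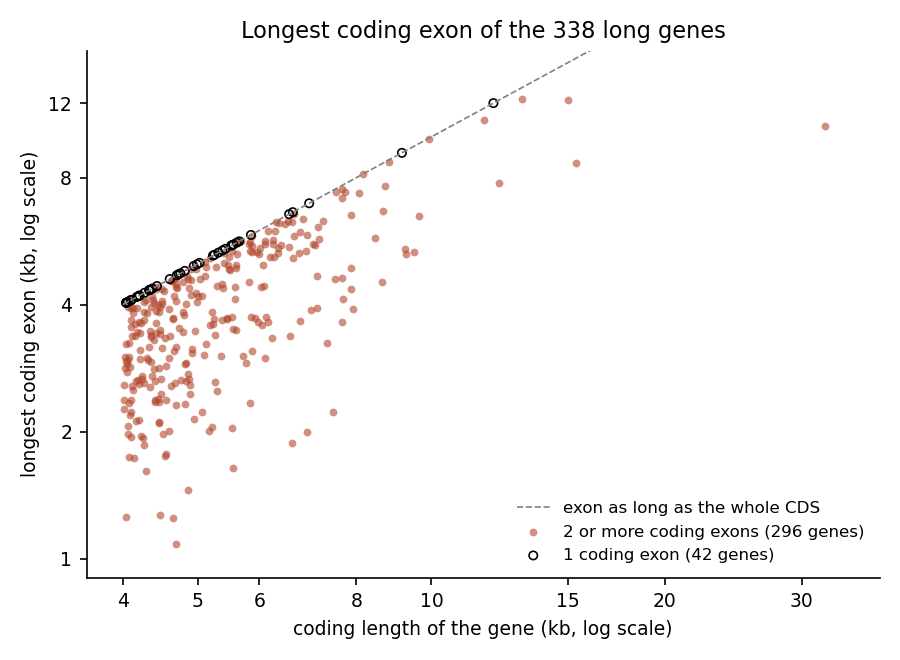
Longest coding exon (kb, log scale) against coding length (kb, log scale) for each of the 338 long genes, with filled points for 296 genes of several coding exons and open circles for 42 genes of 1 coding exon. Points lie on or under the dashed line, where the exon is as long as the whole coding sequence, and the longest exon, of NCU06976, reaches 12305 bp.

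By number of coding exons, 42 long genes had 1, 113 had 2, 92 had 3, 41 had 4 and 50 had 5 or more. A coding sequence in 1 exon was less frequent than in the reference, 12.4% against 22.2% of genes, and 5 or more coding exons were slightly more frequent, 14.8% against 10.5%. Density ran the other way. Pooled over genes, the long group had 0.555 coding exons per kb of coding sequence and the reference 1.82. The values on the 7 sequences were 0.552 ± 0.0473 and 1.82 ± 0.0403 (mean ± SD, n = 7). The coding length that chose both groups is the divisor of this density, so the distance between the groups is in part set by the rule and supports nothing. Among the long genes themselves the number of coding exons hardly moved with coding length (Spearman rho 0.08 across 338 genes, which share 1 annotation). The longest exon did (rho 0.64), but it is a part of the coding sequence, so this rho is in part fixed in advance. Density was 0.686 coding exons per kb at 4 to 5 kb, 0.491 at 5 to 6 kb, 0.491 at 6 to 8 kb and 0.329 at 8 kb or more. The last class held 20 genes, and coding length both defines the classes and divides the density. The longest exon had medians of 3374, 4644, 5457 and 7965 bp in the 4 length classes.

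Several genes show the range. NCU02793 (sequence 1, 9117558 to 9151762, plus strand) was the longest, with 32127 bp in 12 coding exons, the highest number in the group. Its longest exon, number 10 of the coding exons, measured 10606 bp and was only 33.0% of the whole. NCU07119 (sequence 6, 78240 to 94699, minus strand) came next with 15363 bp in 4 coding exons, of which the third measured 8680 bp. It is followed by NCU06468 on sequence 3 (minus strand, 1510314 to 1525616), where 14979 bp were interrupted by 1 intron of 54 bp, which left an exon of 12240 bp. Each of these genes is the longest of its sequence, and the intron-free stretches in them differ less than their coding lengths do.

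The longest coding exon of the annotation belonged to NCU06976 (sequence 4, 4729512 to 4743787, plus strand). It measured 12305 bp, 93.9% of a coding sequence of 13101 bp, and was flanked by 310 bp of coding sequence before it and 486 bp after it. NCU01379 on sequence 5 (minus strand, 3822706 to 3835614) had the same layout, with 10943 of 11685 bp in 1 exon, 52 bp before it and 690 bp after it. NCU07702 on sequence 4 (minus strand, 2163331 to 2173969) began with a coding exon of 47 bp and continued with 1 of 9880 bp. In these 3 genes the introns set off short coding pieces from a very long exon.

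The gene NCU00658 (sequence 1, 7658397 to 7670476, minus strand) was the longest without an intron in its transcript. Its 12021 bp lay in 1 exon, the lowest density of the group at 0.0832 coding exons per kb, and the annotation gives it no 5' UTR and a 3' UTR of 56 bp. At the other extreme, NCU01335 on sequence 5 (minus strand, 3692753 to 3700051) had 11 coding exons in 4533 bp, or 2.43 per kb, and its longest exon was 1751 bp. The remaining genes of the 10 longest were NCU08501 on sequence 2 with 12228 bp and 7 coding exons, NCU05837 on sequence 7 with 9627 bp and 2, and NCU06294 on sequence 4 with 9489 bp and 7. NCU08501 opened with a coding piece of 48 bp before an exon of 7771 bp. In NCU05837 the longest exon, 6488 bp, was the first, with the only coding intron 3139 bp before the end.

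**Figure D2:**
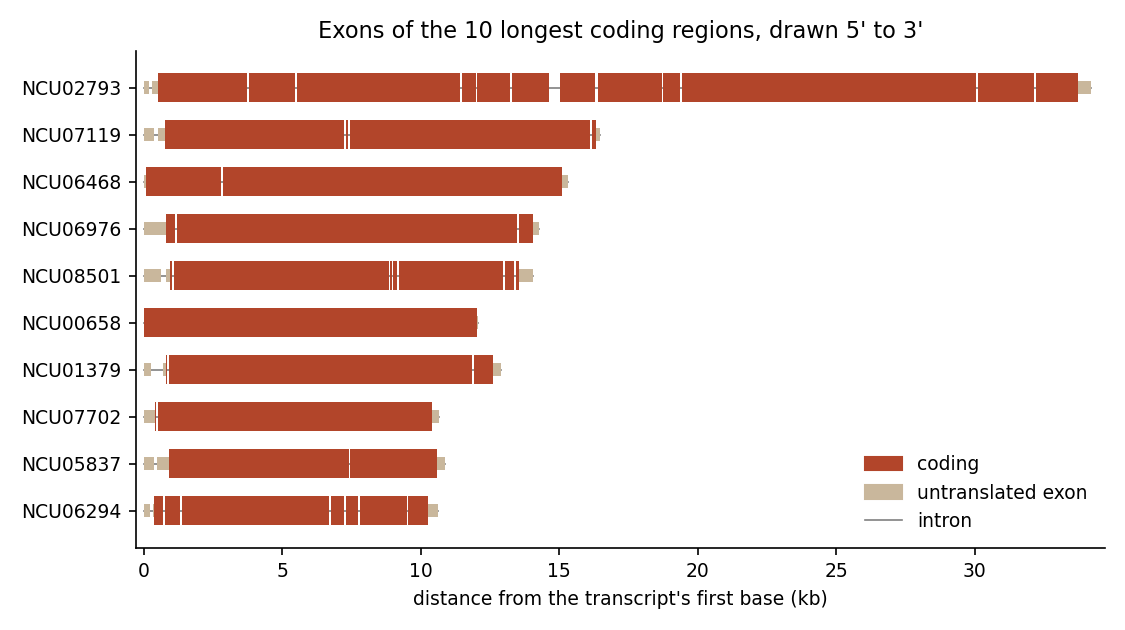
Exon structure of the 10 genes with the longest coding sequence, drawn 5' to 3' with distance from the first base of the transcript in kb; tall boxes are coding, low boxes are untranslated exon and thin lines are introns. Most models hold 1 dominant box, up to 12305 bp in NCU06976, whereas the 32127 bp of NCU02793 are spread over 12 boxes.

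The place of the longest exon was more central in the long genes. Among genes with 3 or more coding exons, the longest was an internal exon in 113 of 183 long genes (61.7%) and in 46.6% of 1677 reference genes. It was the last coding exon in 52 long genes (28.4%), against 42.8%, and the first in 18 (9.84%), against 10.6%. In genes of 2 coding exons the second was the longer in 55 of 113 long genes (48.7%), against 72.9% in the reference. Among the genes of 3 or more coding exons, the long ones had a median of 469 bp of coding sequence before the longest exon and 474 bp after it, and the reference 355 and 90 bp. The lengths in bp depend in part on the coding length that chose the groups. These are descriptions of the models and were not tested.

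The introns of the long genes gathered near the start of the coding sequence and, less strongly, near its end. Of their 695 coding introns, 192 (27.6%) lay in the first 10% of the coding sequence and 81 (11.7%) in the last 10%. The lowest shares, 5.90% and 6.04%, were at 20 to 30% and at 40 to 50% of it. In the reference 19.5% lay in the first 10% and 7.46% in the last. These shares are not matched in bases, because 10% of the coding sequence is a longer stretch in the long genes by the rule. The first 500 bp of coding sequence held 26.8% of the introns of long genes and 54.1% of those of the reference. As a fraction of the coding length, the average intron lay further along than in the reference, where the shares fell steadily over the first 50%. Averaged over sequences, the mean position of an intron was 0.430 ± 0.0321 of the coding length in long genes and 0.389 ± 0.00937 in the reference (SD, n = 7). The divisor of this position is the coding length that chose the groups, so the contrast may depend in part on the rule. The difference was 0.0416 ± 0.0373 (SD), above 0 on 7 of 7 sequences, from 0.00355 on sequence 4 to 0.107 on sequence 3 (exact two-sided sign-flip permutation p = 0.0156, the smallest that 7 sequences allow; adjusted p = 0.025 over 8 tests by the Benjamini-Hochberg method). The call did not hold in genes with 2 to 4 coding introns, where the difference was -0.0079 (exact permutation p = 0.609), nor with a minimum of 5000 bp (0.0399, exact permutation p = 0.109). It held at 0.0210 with a minimum of 3000 bp (exact permutation p = 0.0156), 0.0271 against every gene under 4000 bp (exact permutation p = 0.0313) and 0.0629 as a mean over genes (exact permutation p = 0.0313).

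Counted in bases, introns were sparser in the long genes in each of 3 zones of the coding sequence. In the first 500 bp of coding sequence, long genes had 1.10 introns per kb and reference genes 1.76. In the last 500 bp the densities were 0.473 and 0.785, and between these ends they were 0.282 and 0.804. The last and middle zones are not matched in distance from the start codon, since in the shorter reference genes they lie closer to it. Counted from the end of the CDS, the reference density rose from 0.732 at 400 to 600 bp to 2.16 at 1800 to 2000 bp. On each of the 7 sequences the long genes had the lower density in each of the 3 zones, with differences of -0.643 ± 0.169, -0.298 ± 0.159 and -0.521 ± 0.0452 introns per kb (mean ± SD), a comparison chosen after the values were seen and not tested. Within the long genes, the density fell from 1.35 introns per kb in the first 200 bp to 0.311 at 800 to 1000 bp and to 0.163 at 1800 to 2000 bp. The first coding intron followed a median of 519 bp of coding sequence in the 296 long genes that had 1 or more (quartiles 180 and 2602 bp) and 229 bp in the reference. It lay within 500 bp of the start codon in 147 of them (49.7%), against 75.4%. These distances depend in part on the coding length that chose the groups, and they were not tested.

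**Figure D3:**
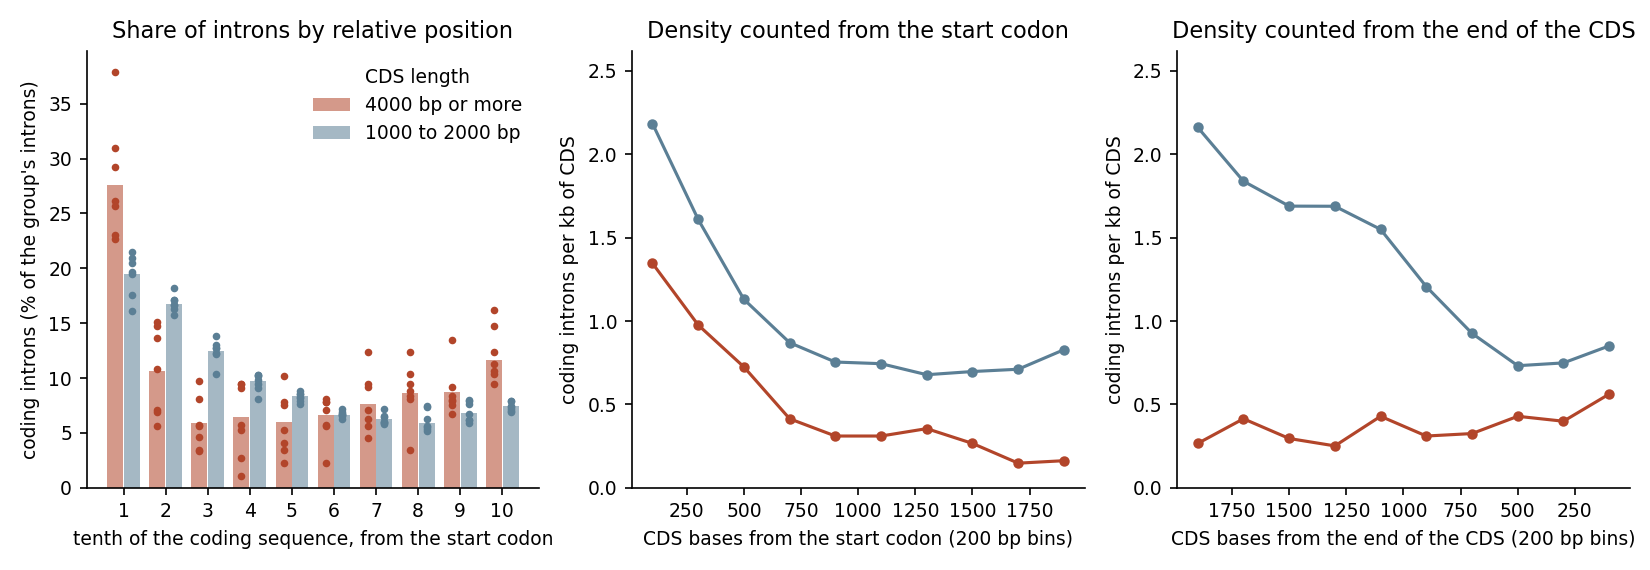
Position of coding introns in genes with 4000 bp or more (red) and 1000 to 2000 bp (blue) of coding sequence. Left, share of a group's introns in each 10% of the coding sequence, with bars for all genes and points for the 7 sequences; middle and right, introns per kb in 200 bp bins from the start codon and from the end of the CDS, where the long genes start at 1.35 and the reference at 2.18 introns per kb and the long genes stay lower throughout.

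Intron length also differed. The median was 65 bp for the 695 coding introns of long genes (quartiles 58 and 80 bp) and 72 bp for the 6289 of the reference (quartiles 62 and 96 bp). The medians of sequences 1 to 7 were 64, 65.5, 62, 69, 65, 69 and 65 bp in long genes. In the reference they were 72, 71, 72, 72, 71, 74 and 72 bp, so that the groups did not overlap. The difference was -6.36 ± 2.25 bp (SD), below 0 on 7 of 7 sequences (exact permutation p = 0.0156, adjusted p = 0.025). It was -1.64 bp against genes of 2000 to 3000 bp (exact permutation p = 0.141) and -5.05 bp with means in place of medians (exact permutation p = 0.125).

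The medians were lower in the long genes both near the start and further on. In the first 10% the median was 72 bp in long genes and 79 bp in the reference, and after it 64 and 70 bp. Introns of 300 bp or more numbered 25 of the 695 (3.60%), against 3.47% in the reference. The longest coding intron, 1217 bp, was in NCU09866 on sequence 6 (minus strand, 1857493 to 1866498) and runs from 1864287 to 1865503, after 221 bp of its 6057 bp of coding sequence. Its other 4 coding introns measured 57 to 80 bp. Introns made up a median of 2.24% of the coding span of a long gene and 6.96% in the reference. The divisor of this share includes the coding length that chose the groups, so the contrast is in part set by the rule. Introns fell between codons in 41.7% of cases, after the first base of a codon in 33.2% and after the second in the rest. The shares of the first 2 kinds in the reference were 37.2% and 35.0%.

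The 5' UTR, the transcribed stretch before the start codon through which the ribosome scans, was longer in the long genes. Its median among 303 long genes that had one was 492 bp (quartiles 289 and 729 bp), and 325 bp in the reference (quartiles 180 and 547 bp, 3175 genes). On sequences 1 to 7 the long genes had medians of 525, 370, 466, 504.5, 565, 430 and 431 bp. The reference had 342, 323, 339, 307, 325, 290 and 335 bp, all below the lowest value of the long genes. The difference was 147 ± 65.2 bp (SD), above 0 on 7 of 7 sequences (exact permutation p = 0.0156, adjusted p = 0.025). It was 73.2 bp against genes of 2000 to 3000 bp, with 6 of 7 sequences above 0 (exact permutation p = 0.0313).

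A 5' UTR of 1000 bp or more was annotated for 31 long genes, 10.2% of those with a 5' UTR, against 5.83% in the reference. NCU08399 on sequence 7 (plus strand, 1080398 to 1091850) had the longest, 3033 bp, before 7701 bp of coding sequence. An intron interrupted the 5' UTR of 64 long genes (21.1% of those with a 5' UTR) and of 12.6% in the reference, and these introns had medians of 135 and 92 bp. Of 292 long genes with both UTRs, 205 (70.2%) had the longer one at the 5' end, against 49.4% of 3051 reference genes. Within the long group, 5' UTR length had little rank correlation with coding length (Spearman rho 0.05 across 303 genes). Its medians were 483, 524, 514 and 452.5 bp from the shortest to the longest of the 4 length classes. With a minimum of 5000 bp, however, the difference from the reference over sequences was 220 bp, against 147 bp with 4000 bp.

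At the other end, no difference in length was detected. The 3' UTR had a median of 342 bp in 310 long genes and 331 bp in 3231 reference genes. The difference over sequences was 12.9 ± 42.8 bp (SD), above 0 on 3 of 7 (exact permutation p = 0.625, adjusted p = 0.625), and ranged from -21 bp on sequence 7 to 102.5 bp on sequence 6. The longest 3' UTR, 1223 bp, was in NCU06832 on sequence 2 (minus strand, 1837210 to 1844886), which also had a 5' UTR of 1494 bp. Introns after the stop codon occurred in 3 long genes, 0.968% of those with a 3' UTR, against 3.10%.

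UTRs were annotated more often in the long genes. A 3' UTR was present in 310 of 338 (91.7%), and on the sequences the share was 91.6% ± 1.76 against 83.0% ± 2.94 in the reference. The difference of 8.66 ± 2.34 percentage points was above 0 on 7 of 7 sequences (exact permutation p = 0.0156, adjusted p = 0.025). A 5' UTR was present in 303 (89.6%), with 89.1% ± 6.07 against 81.4% ± 3.20 on the sequences. That difference, 7.66 ± 5.55 points, was above 0 on 6 of 7 sequences and below 0 on sequence 5 (exact permutation p = 0.0313, adjusted p = 0.0357). Neither UTR was annotated for 17 long genes (5.03%), against 13.3% in the reference. Against genes of 2000 to 3000 bp the differences were 2.95 and 3.06 points (exact permutation p = 0.172 and 0.344), so neither passed there. The 5' result also missed the threshold without any 1 of sequences 1, 2, 3, 4, 6 and 7 (6.24 to 8.26 points, exact permutation p = 0.0625).

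More than 1 transcript was annotated for 60 long genes (17.8%) and for 363 reference genes (9.38%). The shares on sequences 1 to 7 were 14.8%, 27.5%, 15.2%, 15.6%, 25%, 8.82% and 17.2% in long genes. In the reference they were 11.7%, 8.44%, 11.1%, 7.54%, 9.80%, 6.02% and 8.35%. The difference was 8.74 ± 6.29 percentage points (SD), above 0 on 7 of 7 sequences (exact permutation p = 0.0156, adjusted p = 0.025). It was 15.4 points with a minimum of 5000 bp, 4.75 points with 3000 bp, and 5.90 points against genes of 2000 to 3000 bp, where it missed the threshold (exact permutation p = 0.0781).

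Of the 60 genes, 46 had 2 transcripts, 10 had 3, 3 had 4 and 1 had 5. The transcripts differed in their coding sequence in 36 and in their first base in 29, and in 24 the coding sequence was the same throughout. NCU02793 had 5 transcripts with 4 different coding sequences. NCU09866, with the longest coding intron, had 4 transcripts and 4 coding sequences. By number of coding exons, several transcripts were annotated for 11.9% of long genes with 1 coding exon, 20.4% with 2, 10.9% with 3, 31.7% with 4 and 18% with 5 or more. The reference shares were 5.81%, 7.95%, 10.0%, 13.7% and 15.5%.

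The stretch before the start, where promoters lie, was longer for the long genes. The gap to the nearest gene upstream, on either strand, was 1040 bp at the median (quartiles 480 and 2328 bp), and 778 bp in the reference (quartiles 322 and 1771 bp). On sequences 1 to 7 the medians were 1157, 1659, 880, 976, 963.5, 1256.5 and 778 bp in long genes. The reference had 702, 905, 775, 806, 733, 899 and 814 bp, so the groups overlapped and sequence 7 went the other way. The difference was 291 ± 260 bp (SD), above 0 on 6 of 7 sequences (exact permutation p = 0.0313, adjusted p = 0.0357). Against genes of 2000 to 3000 bp it was 202 bp (exact permutation p = 0.234), and in genes with 1 transcript 207 bp (exact permutation p = 0.125). It also missed the threshold with means (314 bp, exact permutation p = 0.297) and without any 1 of sequences 1 to 6 (214 to 322 bp, exact permutation p = 0.0625).

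Coding regions lay further from the nearest coding region upstream. Between coding spans the upstream gap was 1986 bp in long genes and 1512 bp in the reference (means of sequence medians). The difference was 474 bp, with 7 of 7 sequences above 0 (exact permutation p = 0.0156). This distance contains the gene's own 5' UTR and the gap between genes, both reported above, so it is no independent support for either. Another measure ran between whole genes, to the nearest upstream gene on the same strand, passing over any gene on the other strand. It was 3580 bp in long genes and 2766.5 bp in the reference (means of sequence medians). The difference was 814 bp (exact permutation p = 0.0469). The upstream neighbour lay on the other strand, so that the 2 starts face each other, for 197 long genes (58.3%) and for 54.6% of the reference. In these pairs the median gap between whole genes was 1096 bp against 763 bp. Where the nearest upstream gene on either strand lay on the same strand, it was 999 bp against 790 bp. At least 1000 bp were free before 171 long genes (50.6%), against 42.4%. NCU09104 on sequence 1 (minus strand, 863464 to 872329) had the longest upstream gap, 54046 bp. NCU08399, the gene with the longest 5' UTR, had a gap of 40799 bp.

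The start of 7 long genes (2.07%) lay inside another gene, close to the 2.14% of the reference. At the 3' end, 37 (10.9%) ended inside another gene, against 21.4% in the reference. The gap downstream had a median of 584 bp in long genes and 418 bp in the reference, a comparison that was not planned and not tested.

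**Figure D4:**
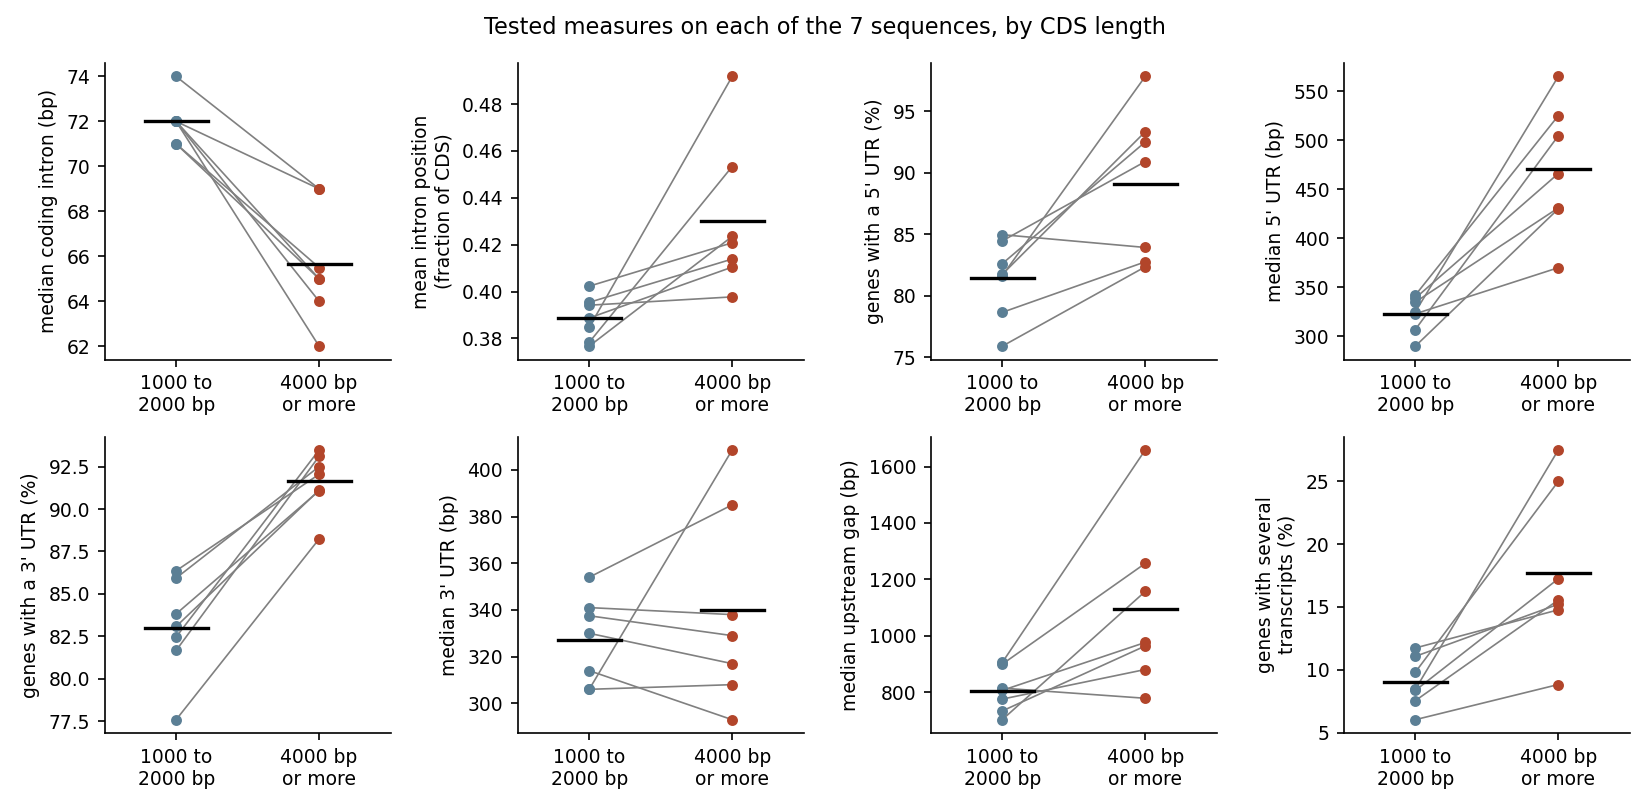
The 8 tested measures on each of the 7 sequences, for genes with 1000 to 2000 bp (blue) and 4000 bp or more (red) of coding sequence; grey lines join the values of a sequence, black bars are means over sequences, and the vertical axes do not start at 0. Lines run the same way on 7 of 7 sequences for 5 of the measures, on 6 of 7 for the share with a 5' UTR and the upstream gap, and in both directions for 3' UTR length.

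The long genes were spread over all 7 sequences and both strands, 168 plus and 170 minus. Sequence 1 carried 88, sequence 2 40, sequence 3 46, sequence 4 45, sequence 5 56, sequence 6 34 and sequence 7 29. As a share of the genes on a sequence this was 3.44% ± 0.404 (mean ± SD, n = 7), from 2.77% on sequence 7 to 3.89% on sequence 2. Along the gene order of each sequence, the 5 equal parts held 72, 61, 74, 74 and 57 of them. Sequence 7 was also the sequence whose longest gene, NCU05837, was shortest, at 9627 bp.

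**Figure D5:**
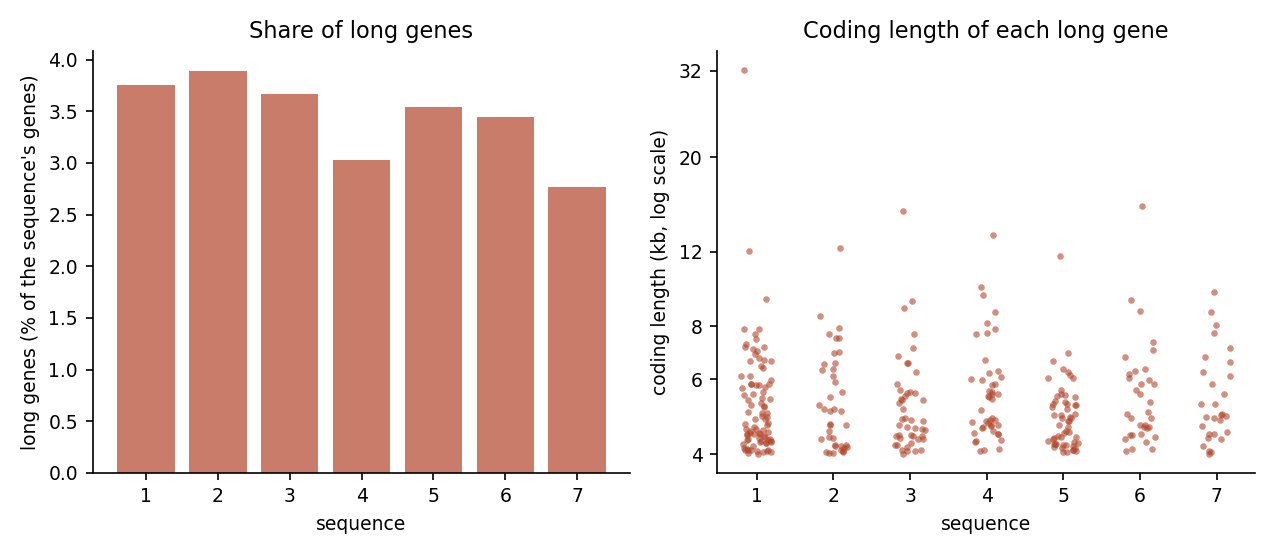
Left, long genes as a percentage of the genes on each of the 7 sequences, from 2.77% to 3.89%; right, coding length (kb, log scale) of each long gene by sequence, with points shifted sideways at random so that they can be told apart. NCU02793 on sequence 1, at 32127 bp, lies far above the rest, the next being NCU07119 on sequence 6 at 15363 bp.

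Long genes were direct neighbours in 19 cases, which involved 37 genes. The number expected from the share of long genes was not computed, so no clustering is read from this count. In 7 of these pairs the starts faced each other, in 7 the ends did, and 5 ran in the same direction. The pair with the largest summed coding sequence, 38880 bp, was NCU02793 and NCU10282 on sequence 1, whose ends face each other across 2091 bp. NCU10282 (minus strand, 9153854 to 9162004) had 6753 bp of coding sequence in 3 exons.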

How the data were processed

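The deposited file analysed here is a GTF gene annotation of N. crassa, which belongs to no library. Per the file headers (its source field, since it has no header line), the gene calls are those named NC12, and its score field is empty in all 81022 records. The file name marks it as a "fixed" version, with no statement of what was altered, so positions and lengths may differ from the original NC12 calls. The values the authors deposited in it, other than identifiers, are positions: where each record starts and ends on its sequence, in bp counted from 1. The reads, for which the submitters' processing notes name CASAVA and Bowtie2, were not analysed here.

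Each gene was represented by its longest transcript by exonic length, with ties broken by identifier. UTR lengths are exonic bases outside the coding region and stop codon. An intron was called coding where it lay between the start and stop codons, and its position is the share of coding bases before it. The upstream gap is the number of bases to the nearest gene on either strand, and 0 where the start lies inside another gene.

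An annotation has no replicates, so the 7 sequences were the units: a median, mean or share was computed on each, and the sign of each difference was flipped in all combinations for an exact two-sided permutation test. The smallest possible p is 0.0156, the threshold was 0.05, and 8 tests were adjusted by the Benjamini-Hochberg method. SDs give the spread between sequences, which is no measurement error, and sequencing depth does not apply. The genes, measures and lists were chosen with earlier results of these data known. Genes were named by rule: the 10 longest, the longest of each sequence, the extremes of each measure, the largest neighbouring pair and those beside the limit. A Neurospora genome sequence was not used, so no sequence is shown. Calculations ran in Python 3.11.15 with NumPy 2.4.6 and pandas 2.3.3, figures in matplotlib 3.10.9, and the code was tested on simulated gene models.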

Additional observations from a re-analysis of the deposited data

Results flagged for a closer look

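In the difference in 3' UTR length, sequence 6 stood apart from the others. Long genes there had a median 3' UTR 102.5 bp longer than the reference, whereas the differences on the 6 other sequences ran from -21 to 31 bp. It rests on 30 long genes with a 3' UTR. In all, 16 sets of 7 values were checked and 1 stood apart; chance marks about 1 in 20.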

How the results depend on the processing

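No paired analysis was possible because no value of a library was used, so their replicate numbers had nothing to pair; the tests on genes are themselves paired, by sequence. In 117 runs of an alternative, spread over 8 measures, 95 changed no call, 21 lost a call and 1 turned the direction of a called difference. Apart from runs that left out 1 sequence there were 61, of which 51 changed no call, 9 lost one and 1 turned it. The runs on 3' UTR length count as unchanged because that measure had no call to lose. A comparison with genes of 2000 to 3000 bp in place of 1000 to 2000 bp ended 5 calls: coding intron length (-1.64 bp), share with a 5' UTR (3.06 points), share with a 3' UTR (2.95 points), share with several transcripts (5.90 points) and upstream gap (202 bp). Means in place of medians ended the calls for coding intron length (-5.05 bp) and upstream gap (314 bp). Intron position lost its call with a minimum of 5000 bp (0.0399) and turned to -0.0079 in genes with 2 to 4 coding introns. Its size moved with the call kept to 0.0210 with a minimum of 3000 bp, 0.0271 against every gene under 4000 bp and 0.0629 as a mean over genes. The upstream gap lost its call in genes with 1 transcript (207 bp). The cause was not tested in any of these. Leaving out 1 sequence at a time gave 6.24 to 9.11 points for the share with a 5' UTR and 214 to 345 bp for the upstream gap, where the smallest p that 6 sequences allow, 0.0313, needs all 6 to agree in sign. It gave -6.92 to -5.75 bp for intron length, 0.0307 to 0.0479 for intron position, 132 to 164 bp for 5' UTR length, 8.20 to 9.16 points for the share with a 3' UTR and 7.02 to 9.73 points for several transcripts; there all 7 sequences had the same sign, so these runs could not fail. The difference in 5' UTR length passed under all 8 other alternatives, from 73.2 to 220.4 bp, and that in 3' UTR length passed under none, from -32.6 to 44.6 bp. Genes with 1 transcript, introns after the first 10% of the coding sequence and genes with 2 to 4 coding exons were added after seeing the data.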

Other observations

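Coding sequences of 4000 bp or more were a small share of the genes in the other fungi of the design as well. In the RefSeq annotation of S. pombe (ASM294v3, whereas the processing notes name ASM294v2), 150 of 5113 protein-coding genes had them (2.93%). In S. cerevisiae (R64), where lengths are gene spans without the stop codon, it was 239 of 6002 (3.98%). The longest in S. pombe were sib1, annotated as ferrichrome synthetase, with 14772 bp, mdn1, midasin, with 14151 bp, and dhc1, the dynein heavy chain, with 12588 bp. In S. cerevisiae they were REA1, the midasin of that yeast, with 14730 bp, DYN1, the dynein heavy chain, with 12276 bp, and TRA1, a subunit of the SAGA and NuA4 acetyltransferase complexes, with 11232 bp.

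Most long genes of S. pombe had no coding intron. Of the 150, 106 (70.7%) had 1 coding exon, against 56.2% of its 1938 genes with 1000 to 2000 bp. Pooled density was 0.293 coding exons per kb against 1.40. Of their 93 introns, 59.1% lay in the first 10% of the coding sequence, against 30.5% of 1933 introns in the shorter genes. Both contrasts are in part set by the rule. Coding length is the divisor of the density, and 10% of the coding sequence is a longer stretch in the long genes. The species were compared after the data were seen, each by 1 annotation from a different source, and no difference between them was tested.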
